A study of Mus musculus with 33 samples.

Results

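The 8 enzymes described here, encoded by Aldh2, Aldh1a1, Aldh3a2, Aldh5a1, Aldh6a1, Aldh7a1, Aldh9a1 and Adh5, take part in the oxidation of aldehydes, most of them to acids. They were chosen by symbol, and all 8 were found among the 23366 genes of each of 2 RNA-Seq count tables, 1 for female and 1 for male offspring. C57BL/6 dams, and later the dams together with their pups, inhaled filtered air (Control), e-cigarette aerosol with nicotine at 13 to 16 mg per mL of liquid (ExposedNic) or e-cigarette aerosol without nicotine (ExposednoNic). Frontal cortex was taken from the offspring at about 1 month of age. The tables gave 6 air, 5 nicotine and 5 no nicotine libraries labelled female, and 6 air, 6 nicotine and 5 no nicotine libraries labelled male. Exposure was by whole body inhalation, so that the dose of a single pup is not known from the sources used here, and the sexes were sequenced in separate runs, so that sex and run cannot be told apart. Because e-cigarette aerosol can carry aldehydes, the question was whether transcripts of the enzymes that clear them differed between exposed and air-exposed offspring.

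Aldehydes react with proteins and DNA, and brain tissue both receives them from outside and makes them. Aldh2 is the mitochondrial enzyme that oxidises acetaldehyde and lipid peroxidation products, Adh5 oxidises the glutathione adduct of formaldehyde, and Aldh3a2 acts on long-chain fatty aldehydes. Aldh1a1 converts retinaldehyde to retinoic acid. The other members act on aldehydes that arise in amino acid and amine metabolism: Aldh5a1 oxidises succinate semialdehyde, the last step in the breakdown of the transmitter GABA, Aldh9a1 oxidises aminobutyraldehyde and its trimethylated form (a step towards carnitine), Aldh6a1 acts in valine and pyrimidine breakdown, and Aldh7a1 in lysine breakdown.

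Transcripts of Aldh9a1 and Aldh5a1 were higher after exposure, and those of the other 6 enzymes did not pass the test in any comparison. Aldh9a1 rose by 20.2% in female offspring exposed with nicotine, by 19.8% in female offspring exposed without nicotine and by 19.2% in male offspring exposed without nicotine. Aldh5a1 rose by 18.9% in females and by 20.4% in males exposed without nicotine. In males exposed with nicotine no member passed. Of all genes tested, 4.29 and 12.1% passed in females with and without nicotine, and 0 and 13.6% in males. Leaving out a single library could undo the calls of Aldh9a1 in female nicotine and male no nicotine offspring. The same held for Aldh5a1 in female no nicotine offspring. Aldh2 and Aldh3a2 differed by at most 0.06 on the log2 scale in all 4 comparisons with air, with 95% intervals that lay between -0.12 and 0.17. Adh5 differed from air by 0.12 in females without nicotine (95% interval 0.02 to 0.22). In males without nicotine it differed by 0.10 (0.02 to 0.19), and it did not pass in either sex.

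Some libraries need to be described before the results. Xist, the RNA of the inactive X chromosome, stood at 215 CPM (reads scaled to a common library size, with a TMM factor for each library) in the library labelled male nicotine replicate 21, against 119 to 156 CPM in females and at most 0.253 CPM in the other 16 libraries labelled male, and 1 read over 4 Y-linked genes against 2140 to 3129 in the other 5 male nicotine libraries. The members' male differences are therefore given with and without it. Summed CPM of 6 choroid plexus markers reached 324 in female air replicate 3, 110 in female air replicate 6 and 283 in female no nicotine replicate 3. It reached 942 in male no nicotine replicate 7, while the group medians lay at or below 40.6. Library totals ran from 19150562 to 27513174 counts in females and from 17845672 to 24787955 in males, and no 2 libraries of a group agreed within sampling noise (chi-square per degree of freedom at least 4.63, where 1 sample sequenced again would lie near 1).

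The level of each enzyme was compared per kb of exon in the mm9 annotation (plot of CPM per kb). In air-exposed females Aldh1a1 (32.2 CPM per kb), Aldh6a1 (29.1) and Aldh5a1 (27.1) formed the upper group, and the libraries of each overlapped those of the next. Adh5 (18.2), Aldh7a1 (17.6) and Aldh2 (16.7) followed and also overlapped each other, and no library of Adh5 reached the lowest of Aldh5a1. Aldh9a1 (12.9) and Aldh3a2 (11.6) were lowest and overlapped, with no library of Aldh9a1 reaching the lowest of Aldh2. In air-exposed males the order was Aldh6a1 (29.0 CPM per kb), Aldh5a1 (27.1), Aldh1a1 (26.7), Adh5 (18.4), Aldh7a1 (17.3), Aldh2 (16.3), Aldh9a1 (14.0) and Aldh3a2 (11.5), with gaps between the libraries only below Aldh1a1 and below Aldh9a1. All members were well covered, with at least 744 reads in every library.

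**Figure D1:**
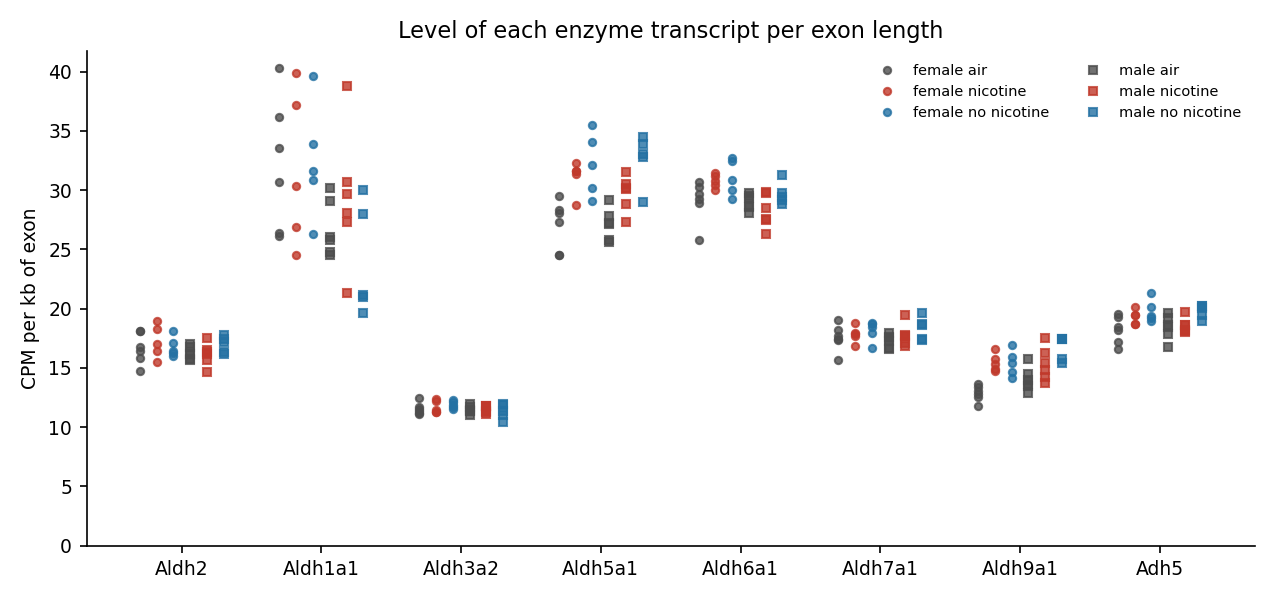
Level of the 8 enzyme transcripts as CPM per kb of exon (y axis, linear from 0), 1 point per library, circles female and squares male, coloured by exposure (grey air, red nicotine, blue no nicotine). Aldh1a1, Aldh5a1 and Aldh6a1 lie above the rest in nearly every library, and Aldh3a2, near 11.6 CPM per kb in air-exposed females, is the lowest.

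Aldh5a1 encodes succinate semialdehyde dehydrogenase and lies on chromosome 13 (mm9, 24999448 to 25029530, minus strand). In air-exposed females it ranged from 138 to 167 CPM with a median of 157 (mean 153 ± 11.8 SD, n = 6). The 5 female nicotine libraries gave 163, 177, 179, 179 and 182 CPM, and the 5 female no nicotine libraries 164, 171, 181, 192 and 200 CPM. In each exposed group 4 of the 5 libraries lay above the highest air library, and the ranges overlapped by the remaining library. The change against air was 0.20 on the log2 scale with nicotine (SE 0.059, 95% interval 0.08 to 0.33) and 0.25 without nicotine (SE 0.059, interval 0.13 to 0.37). It passed the adjusted p threshold of 0.01 without nicotine (edgeR quasi-likelihood test, Benjamini-Hochberg adjusted p = 0.00593) and missed it with nicotine (adjusted p = 0.0329). In this gene 1 library could decide the call without nicotine: the adjusted p was 0.0131 to 0.0225 without air replicate 4, 5 or 6 or without no nicotine replicate 2, 3 or 5, and 0.0139 with only the air and no nicotine groups in the fit.

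In males Aldh5a1 ran from 145 to 165 CPM in air with a median of 153 (mean 153 ± 7.46 SD, n = 6), and from 154 to 178 CPM with nicotine with a median of 170.3 (mean 168 ± 8.42 SD, n = 6). The 5 male no nicotine libraries gave 164, 185, 187, 192 and 195 CPM, of which 4 lay above every air library. The change without nicotine was 0.27 (SE 0.048, interval 0.17 to 0.37, adjusted p = 0.00056) and stayed past the threshold when any 1 male library was left out (adjusted p at most 0.00239). With nicotine it was 0.13 (SE 0.046, adjusted p = 0.181), and 0.13 with an adjusted p of 0.271 without the library labelled male nicotine replicate 21. Without that library the change without nicotine was 0.27 (adjusted p = 0.000834).

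Aldh9a1 encodes an enzyme for aminoaldehydes and lies on chromosome 1 (mm9, 169280122 to 169298661, plus strand). In air-exposed females it ranged from 33.3 to 38.6 CPM with a median of 36.6 (mean 36.5 ± 1.91 SD, n = 6). The 5 nicotine libraries gave 41.8, 42.3, 43.4, 44.6 and 47.1 CPM, and the 5 no nicotine libraries 40.1, 41.6, 43.6, 45.1 and 48.0 CPM. All 10 exposed female libraries thus lay above all 6 air libraries. The share of all genes that separate in this way was not counted. With and without nicotine, 28.1 and 36.4% of all genes tested had an unadjusted p below 0.05 (edgeR quasi-likelihood test). The change was 0.27 with nicotine (SE 0.052, interval 0.16 to 0.37, adjusted p = 0.00413) and 0.26 without nicotine (SE 0.052, interval 0.15 to 0.37, adjusted p = 0.00216). The call with nicotine was lost without air replicate 5 or nicotine replicate 1, 2 or 6 (adjusted p 0.0101 to 0.0141), and the call without nicotine held whichever female library was left out (adjusted p at most 0.00832).

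Male Aldh9a1 ran from 36.4 to 44.7 CPM in air with a median of 39.1 (mean 39.7 ± 2.87 SD, n = 6), and from 38.8 to 49.6 CPM with nicotine with a median of 42.8 (mean 43.4 ± 3.93 SD, n = 6). The 5 no nicotine libraries gave 43.8, 44.6, 49.4, 49.4 and 49.5 CPM, of which 3 lay above every air library. The change was 0.25 without nicotine (SE 0.063, interval 0.12 to 0.39, adjusted p = 0.00667) and 0.13 with nicotine (SE 0.061, interval -0.00032 to 0.25, adjusted p = 0.347). Leaving out the library labelled male nicotine replicate 21 gave 0.13 with nicotine (adjusted p = 0.429) and 0.25 without nicotine (adjusted p = 0.00883). The call without nicotine was lost when any of air replicates 30, 31, 33, 38 and 39 or of no nicotine replicates 4, 5 and 7 was left out, with an adjusted p of up to 0.0208 and a change of at least 0.23.

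**Figure D2:**
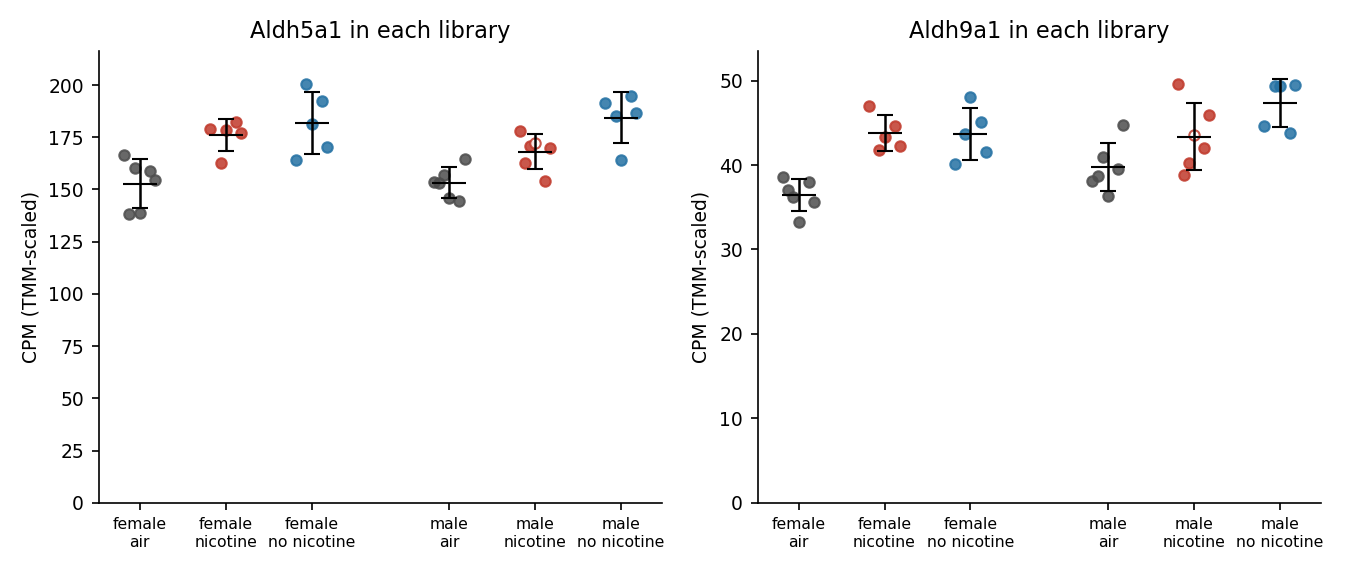
Aldh5a1 (left) and Aldh9a1 (right) in each of the 33 libraries as TMM-scaled CPM (y axis from 0), by sex and exposure, with the mean and SD of each group as black bars; the open point is the library labelled male nicotine replicate 21. All female exposed libraries of Aldh9a1 lie above the 38.6 CPM of the highest female air library, and for Aldh5a1 4 of 5 libraries of each female exposed group lie above 167 CPM.

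The stretch before the start of each of these genes is shown with that of Aldh3a2, a member with small differences in every comparison with air, so that the sequences next to the start can be read beside the expression values. Each is 250 bases directly upstream of the RefSeq start on GRCm38.p6, 5′ to 3′ in the direction of the gene, and capitals mark matches on either strand to the letters TGACNNNGC (antioxidant response element core), GCGTG (xenobiotic response element core), CCAAT (the box of that name), GGGCGG (the motif bound by Sp1), TATAAA (the box of the core promoter) and CACGTG (E-box). The positions are chr13:24937662-24937911 (minus strand) for Aldh5a1, chr1:167349741-167349990 (plus strand) for Aldh9a1 and chr11:61267187-61267436 (minus strand) for Aldh3a2.
Aldh5a1: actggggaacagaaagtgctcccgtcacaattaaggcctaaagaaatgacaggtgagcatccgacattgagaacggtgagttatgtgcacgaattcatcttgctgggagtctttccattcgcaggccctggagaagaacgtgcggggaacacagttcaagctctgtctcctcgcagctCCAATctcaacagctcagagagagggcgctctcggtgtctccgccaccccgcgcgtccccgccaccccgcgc
Aldh9a1: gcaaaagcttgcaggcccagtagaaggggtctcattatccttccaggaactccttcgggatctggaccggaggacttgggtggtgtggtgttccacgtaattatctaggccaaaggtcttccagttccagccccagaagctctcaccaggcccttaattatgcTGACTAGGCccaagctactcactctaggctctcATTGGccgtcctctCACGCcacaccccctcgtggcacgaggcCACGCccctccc
Aldh3a2: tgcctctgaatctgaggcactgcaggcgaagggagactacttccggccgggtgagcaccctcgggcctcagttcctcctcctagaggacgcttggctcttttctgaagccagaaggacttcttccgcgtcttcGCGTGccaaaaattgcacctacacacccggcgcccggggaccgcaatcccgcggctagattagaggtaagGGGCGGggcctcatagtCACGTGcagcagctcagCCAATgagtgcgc
The window of Aldh9a1 held 1 match to TGACNNNGC, a string found in 10.2% of the 32851 RefSeq windows of this length, 2 matches to GCGTG (in 28.2% of all windows) and 1 to CCAAT (33.9%, on the opposite strand). Aldh5a1 held 1 CCAAT box and none of the other strings. Aldh3a2 held 1 xenobiotic core, 1 CCAAT box, 1 match to GGGCGG (in 32.7% of all windows) and 1 E-box (6.02%), and a TATA box (12.4%) was in none of the 3 windows. Their GC content was 57.2, 57.6 and 61.2%, against a median of 52.4% over all windows. Of the 8 members 6 had a window in the table, Aldh2 and Aldh7a1 not. Matches were counted as strings, and binding was not measured.

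Adh5, the glutathione-dependent formaldehyde dehydrogenase on chromosome 3 (mm9, 138106057 to 138118463, plus strand), came closest to the threshold among the rest in the comparisons without nicotine, and did not pass. It ranged in females from 46.4 to 54.7 CPM in air (median 51.3), from 52.3 to 56.4 CPM with nicotine and from 53.1 to 59.7 CPM without nicotine. In males it ran from 47.0 to 55.0 CPM in air (median 51.9), from 50.5 to 55.2 CPM with nicotine and from 53.2 to 56.8 CPM without nicotine. All 10 exposed female libraries were above the female air mean of 51.0 CPM, and all 5 male no nicotine libraries were above the male air mean of 51.6 CPM, yet the ranges overlapped in every comparison with air. The log2 difference from air was 0.08 (95% interval -0.01 to 0.18) and 0.12 (0.02 to 0.22) in females with and without nicotine, and 0.01 (-0.07 to 0.09) and 0.10 (0.02 to 0.19) in males, with adjusted p of 0.258, 0.0666, 0.949 and 0.0714. With male nicotine replicate 21 left out the male values of Adh5 were 0.02 and 0.10, with adjusted p of 0.909 and 0.0786.

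Aldh2 (chromosome 5, mm9, 122016036 to 122043833, minus strand) had group means from 75.9 to 81.1 CPM, with all libraries between 68.9 and 89.3 CPM. Its difference from air was 0.05, 0.01, -0.01 and 0.06 on the log2 scale in female nicotine, female no nicotine, male nicotine and male no nicotine offspring. In female no nicotine offspring the 95% interval ran from -0.12 to 0.14, which leaves out a difference as large as the 0.26 of Aldh9a1 in the same animals. Aldh3a2 (chromosome 11, mm9, 61036919 to 61080966, minus strand) had group means from 63.7 to 66.8 CPM and SDs from 1.66 to 3.45 CPM, and differences of 0.02, 0.04, 0.0046 and -0.02 in the same order. The male differences without replicate 21 were -0.01 and 0.06 for Aldh2 and 0.01 and -0.02 for Aldh3a2, with and without nicotine.

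Aldh6a1 (chromosome 12, mm9, 85771673 to 85791900, minus strand) and Aldh7a1 (chromosome 18, mm9, 56669341 to 56732605, minus strand) differed from air by at most 0.093 and 0.088 on the log2 scale, and did not pass. Aldh6a1 had means of 103, 108.5 and 109.6 CPM in female air, nicotine and no nicotine offspring, and all 10 exposed libraries were above the air mean, with adjusted p of 0.240 and 0.127. In males its means were 102, 99.7 and 105 CPM in the same order. Aldh7a1 ranged from 81.2 to 102 CPM over all libraries, and its adjusted p against air was 0.810 and 0.524 in females and 0.695 and 0.128 in males. Once replicate 21 was left out, the male differences were -0.05 and 0.04 for Aldh6a1 and 0.06 and 0.09 for Aldh7a1 in the same order, and neither gene passed.

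Aldh1a1 (chromosome 19, mm9, 20676451 to 20717952, plus strand) was the most variable member among animals of 1 group. Its libraries ran from 53.7 to 82.7 CPM in female air, from 50.4 to 81.9 CPM in female nicotine and from 54.0 to 81.4 CPM in female no nicotine offspring, with coefficients of variation of up to 20.7%. The 3 female ranges overlapped almost fully. In males the means were 54.9 ± 4.83 (SD, n = 6) in air, 60.2 ± 11.7 (n = 6) with nicotine and 49.2 ± 9.68 CPM (n = 5) without nicotine, and the 95% intervals of the male differences from air ran from -0.12 to 0.39 with nicotine and from -0.43 to 0.11 without nicotine. The male differences were 0.13 and -0.16, and were the same to 2 decimals when replicate 21 was left out. Of its 50-base windows 30.9% matched Aldh1a7 with at most 2 mismatches, and Aldh1a7 itself had 1.11 to 1.88 CPM per group, so the division of reads between this pair is uncertain.

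**Figure D3:**
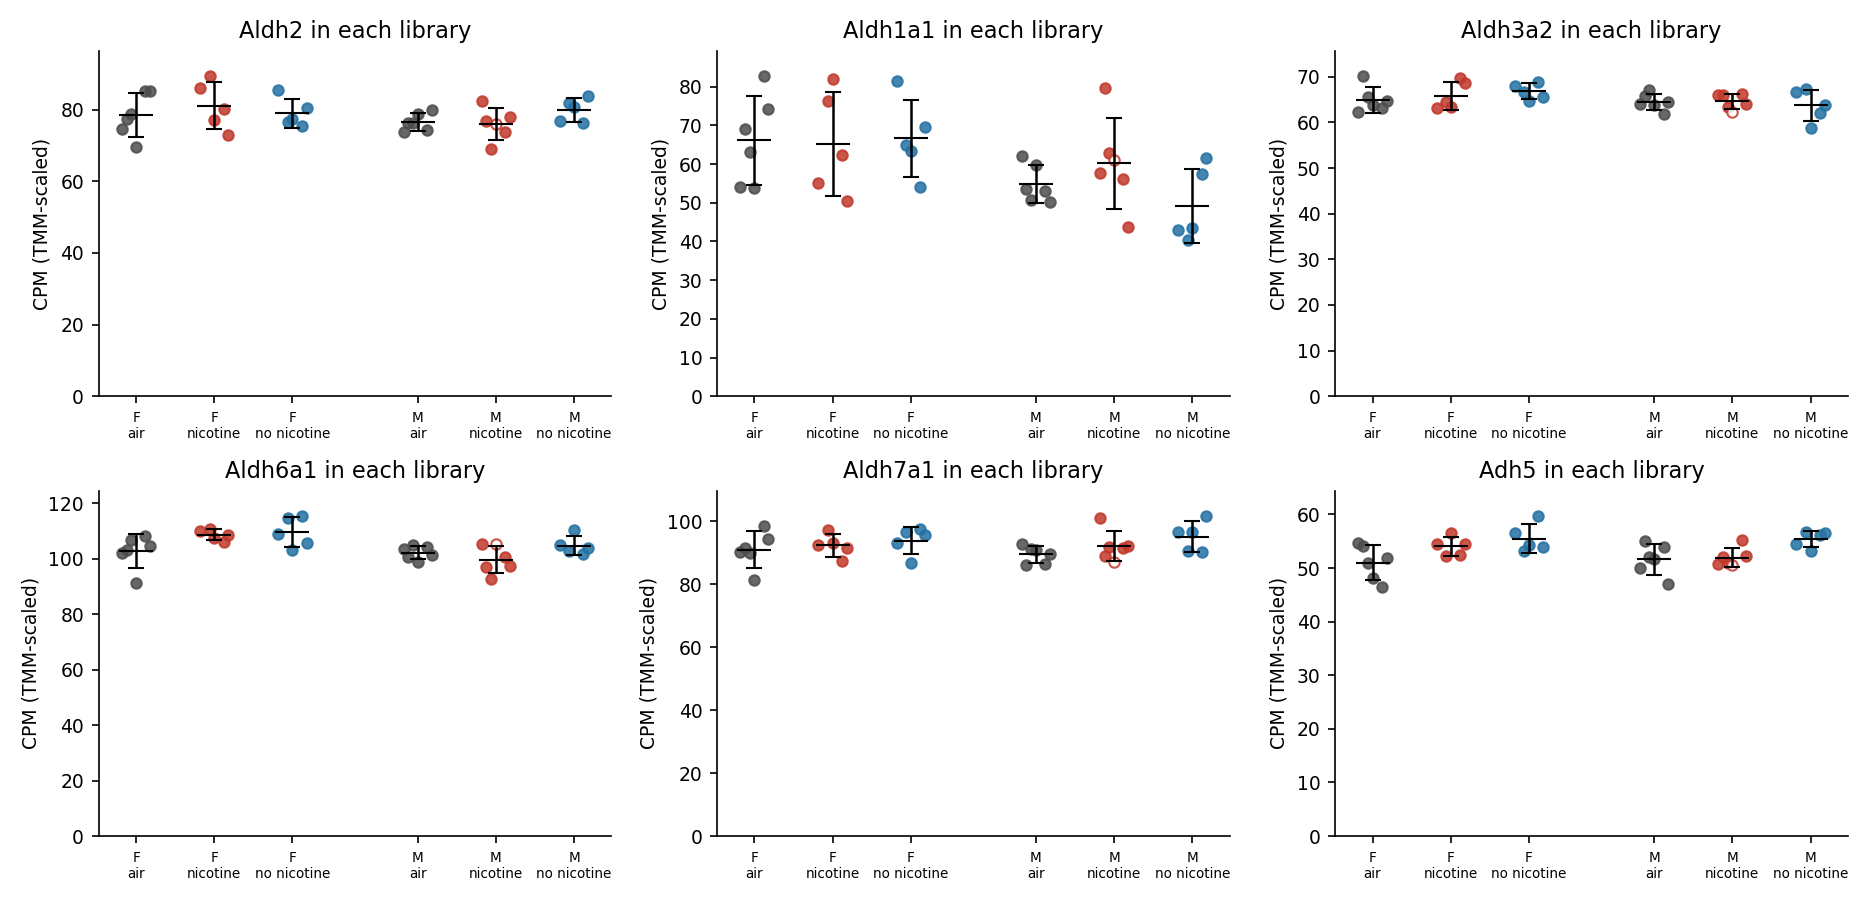
The other 6 members in each library as TMM-scaled CPM (y axes from 0), F female and M male, grey air, red nicotine, blue no nicotine, with the mean and SD of each group as black bars and the library labelled male nicotine replicate 21 as an open point. The groups overlap in all 6 panels for every comparison with air, and Aldh1a1 has the widest spread, from 40.3 to 82.7 CPM.

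Counted over the list, 1 of 8 members was called in female nicotine offspring (4.29% of the 15158 genes tested were called there), 2 of 8 in female no nicotine offspring (12.1% of all genes) and 2 of 8 in male no nicotine offspring (13.6% of 15293), all of them higher. The 8 members had median log2 changes of 0.06, 0.07 and 0.07 in these comparisons, against 0.0041, 0.01 and 0.02 over all genes tested. In male nicotine offspring 0 of 8 members were called, as were 0% of all genes, with edgeR, and Aldh5a1 was the only member with an unadjusted p below 0.05 (2203 of all genes had one), the median change being 0.02. DESeq2 called 159 genes and limma-voom 0 in that comparison, no member among them. When male nicotine replicate 21 was left out, the counts for male nicotine and male no nicotine offspring were 0 and 2 members, and 0 and 2004 of all genes. The shares over all genes depended on single libraries in females. With nicotine the 651 calls became 930 without nicotine replicate 3. They moved by over 1.5 times without nicotine replicate 2 (226), 1 (283) or 6 (267) or air replicate 2 (353), 5 (351) or 6 (283). Without nicotine the 1829 calls became 2505 without no nicotine replicate 1. They moved by over 1.5 times without no nicotine replicate 2 (823), 3 (843) or 5 (1047) or air replicate 6 (1078). The 4 comparisons with air share their air libraries within a sex.

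**Figure D4:**
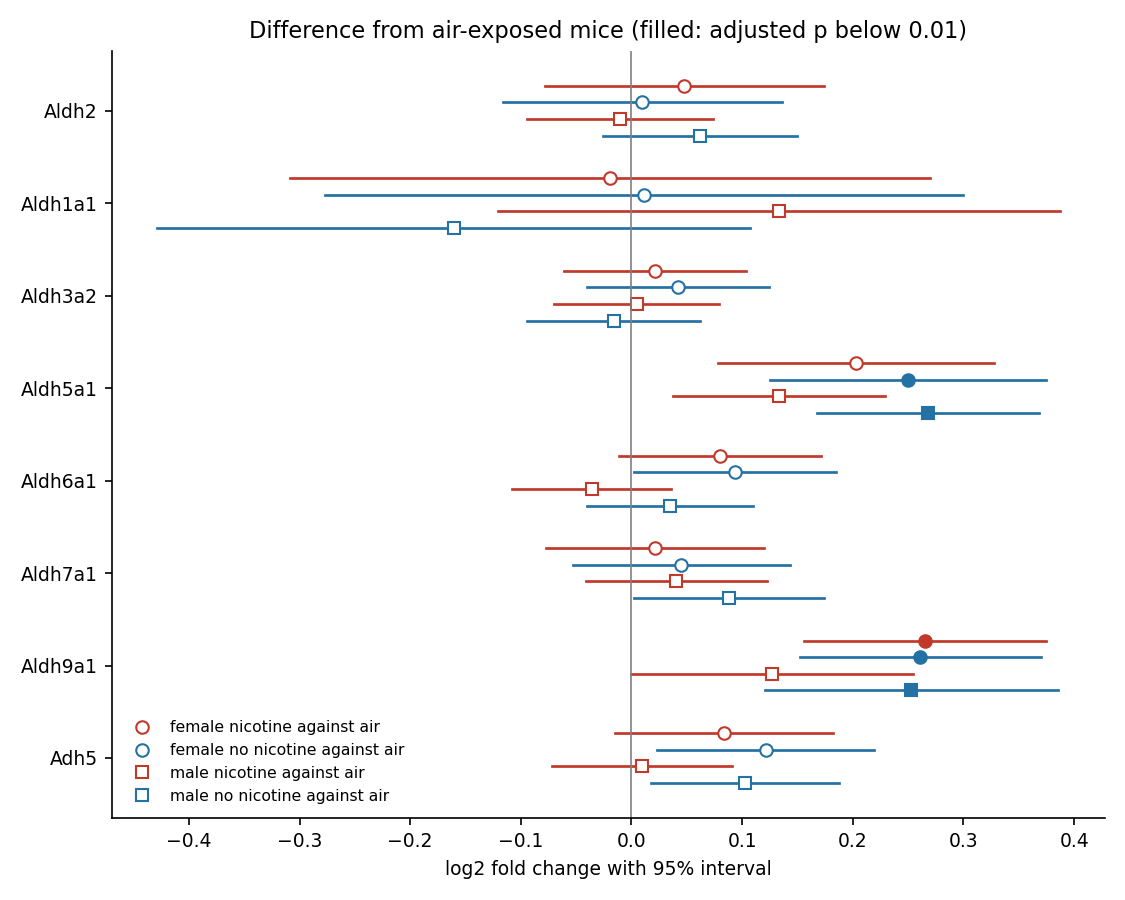
Log2 fold change against air-exposed offspring of the same sex (x axis) for the 8 members, with 95% intervals, circles female and squares male, red nicotine and blue no nicotine; filled symbols have an adjusted p below 0.01. The filled symbols are those of Aldh5a1 without nicotine in both sexes, and of Aldh9a1 in all comparisons but male nicotine, at 0.25 to 0.27.

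Offspring exposed with and without nicotine were also compared with each other. In females 0 of 8 members were called (0% of all genes with edgeR, DESeq2 and limma-voom alike; 1267 genes and no member at an unadjusted p below 0.05). The changes lay between -0.05 and 0.04, and Aldh9a1 differed by 0.0042 with a 95% interval of -0.11 to 0.12. In males 0 of 8 were called (0.248% of all genes with edgeR; no member with DESeq2 or limma-voom), and 3 members had an unadjusted p below 0.05. Of these, Aldh5a1 and Adh5 were lower with nicotine than without, with changes of -0.13 (interval -0.24 to -0.03, adjusted p = 0.117) and -0.09 (interval -0.18 to -0.0084, adjusted p = 0.201), and Aldh1a1 was higher, at 0.29 (interval 0.03 to 0.56, adjusted p = 0.201). All 6 male nicotine libraries of Adh5 and Aldh5a1 were below the mean of the male no nicotine libraries. Without the library labelled male nicotine replicate 21 these 3 changes were -0.14, -0.09 and 0.29, with adjusted p of 0.148, 0.305 and 0.268. The 38 genes behind the 0.248% became 5 without that library, 0 without no nicotine replicate 3 or 5 and 246 without nicotine replicate 19, and moved by over 1.5 times when any of 15 of the 17 libraries labelled male was left out, and 0 genes were called with only these groups in the fit.

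Whether the response to exposure differed by sex was tested as an interaction over all 6 groups. No member was called for nicotine or for no nicotine (0% of 15105 genes in each with edgeR; 978 and 742 genes at an unadjusted p below 0.05). DESeq2 called 1 and 0 genes and limma-voom none, no member among them. Aldh6a1 had the only member p below 0.05 before adjustment, with a male minus female difference of -0.13 for nicotine (interval -0.23 to -0.02, adjusted p = 0.723). For nicotine the difference was -0.15 for Aldh9a1 (interval -0.31 to 0.02) and -0.08 for Aldh5a1 (interval -0.23 to 0.08), so that the absence of a call in males with nicotine is not shown to differ from the result in females. Without the library labelled male nicotine replicate 21 the values were -0.14 for Aldh6a1, -0.15 for Aldh9a1 and -0.09 for Aldh5a1.

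The remaining aldehyde and alcohol metabolism was covered by 5 lists of 45 genes (other aldehyde dehydrogenases, other alcohol dehydrogenases, aldehyde and carbonyl reductases, glutathione-linked clearance, and aldehyde oxidases with ethanol oxidation), of which 37 were tested in females and 35 in males. In both female comparisons with air 0 were called by edgeR, with 5 and 10 of 37 genes at an unadjusted p below 0.05 with and without nicotine, against 28.1 and 36.4% of all genes tested, while DESeq2 called 1 in each. In male nicotine offspring 0 were called by edgeR, DESeq2 or limma-voom, with 2 of 35 at an unadjusted p below 0.05 (5.71%, against 14.4% of all genes). In male no nicotine offspring 1 rose and 1 fell, together 5.71% of the list against 13.6% of all genes, and both were also called when replicate 21 was left out. Aldh3b1, an aldehyde dehydrogenase of medium- and long-chain aldehydes, rose by 0.42 on the log2 scale (SE 0.085, adjusted p = 0.00138), from 4.75 ± 0.542 (SD, n = 6) to 6.39 ± 0.454 CPM (n = 5). Aox4, an aldehyde oxidase, fell by 1.10 (SE 0.22, adjusted p = 0.0014) from 1.23 ± 0.201 to 0.575 ± 0.101 CPM, a low level in every group. In females, with and without nicotine, Aldh3b1 changed by 0.38 and 0.31 (adjusted p = 0.0219 and 0.0337). Aox4 changed there by -0.33 and -0.87 (adjusted p = 0.457 and 0.0310). Neither gene was shown to differ by sex without nicotine (interaction, adjusted p = 0.967 and 0.972). The aldehyde and carbonyl reductases, 10 of 12 tested in females and 9 in males, had median changes of 0.01 to 0.05 against air, and the 8 genes of glutathione-linked clearance 0.05 to 0.10, with no call.

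Markers of cell types moved with exposure in the same libraries. Summed CPM of 12 markers of cortical glutamatergic neurons ran from 3144 to 3965 in female air, from 2092 to 2816 in female nicotine and from 1310 to 3008 in female no nicotine offspring, with 2 and 11 of 12 called lower. In males it ran from 2952 to 3507 in air, from 2166 to 2975 with nicotine and from 1081 to 2107 without nicotine, with 0 and 11 of 12 called lower. In bulk tissue, fewer cells of a type and less RNA per cell cannot be told apart. The 8 oligodendrocyte markers summed to between 8230 and 9913 CPM in female air, 13523 and 17217 with nicotine and 11085 and 16606 without nicotine, and in males to 9452 to 11563, 9702 to 15046 and 13769 to 23579 CPM, with 8, 7, 0 and 8 of 8 called higher in the 4 comparisons. Of all genes tested, 1.98, 5.03, 0 and 6.15% were called higher in these comparisons, and 2.32, 7.03, 0 and 7.47% lower.

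Of the subcortical lists, all 6 markers of basal forebrain cholinergic neurons were called higher in every comparison with air except male nicotine, where none was, with sums of 19.6 to 78.6 CPM in female air, 82.6 to 192 with nicotine and 107 to 283 without nicotine, and of 34.2 to 80.2, 92.9 to 141 and 110.0 to 233 CPM in males. Chat and Ngfr of this list, and Tbr1 of the cortical list, were already reported by the study as changed without nicotine in the males. Of the 9 striatal projection neuron markers 3, 1, 0 and 2 were called higher. Sums of 8 astrocyte markers lay between 11036 and 15061 CPM over all groups with 0, 0, 0 and 1 called, those of 8 microglial markers between 899 and 1241 CPM with none called, and those of 8 endothelial markers between 587 and 809 CPM with 0, 0, 0 and 1 called. Of 6 choroid plexus markers 3 were called, all in male no nicotine offspring, and none of 6 meningeal markers. The choroid plexus sum in that group was 942 CPM in replicate 7 and 29.7 to 51.6 CPM in the other libraries. No marker was at 0 throughout a group, and Folr1 alone was at 0 in a single library. If replicate 21 was left out, no marker was called with nicotine in males, and without nicotine the calls became 3 striatal, 2 choroid plexus and 0 endothelial, those of the other lists keeping their number.

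Both enzymes can be read beside the marker sums in single libraries. Aldh5a1 was at 195 CPM in the library with the lowest cortical glutamatergic sum (male no nicotine replicate 3, 1081 CPM) and at 138 CPM in the library with the highest (female air replicate 6, 3965 CPM), and Aldh9a1 was at 43.8 and 37.1 CPM in the same pair. The library with the highest oligodendrocyte sum, male no nicotine replicate 5 at 23579 CPM, had 187 CPM of Aldh5a1 and 49.5 CPM of Aldh9a1. The library with the lowest, female air replicate 1 at 8230 CPM, had 167 and 38.6 CPM, the highest of the female air libraries for both enzymes. The part of cell composition in the rise of both transcripts was not tested.

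**Figure D5:**
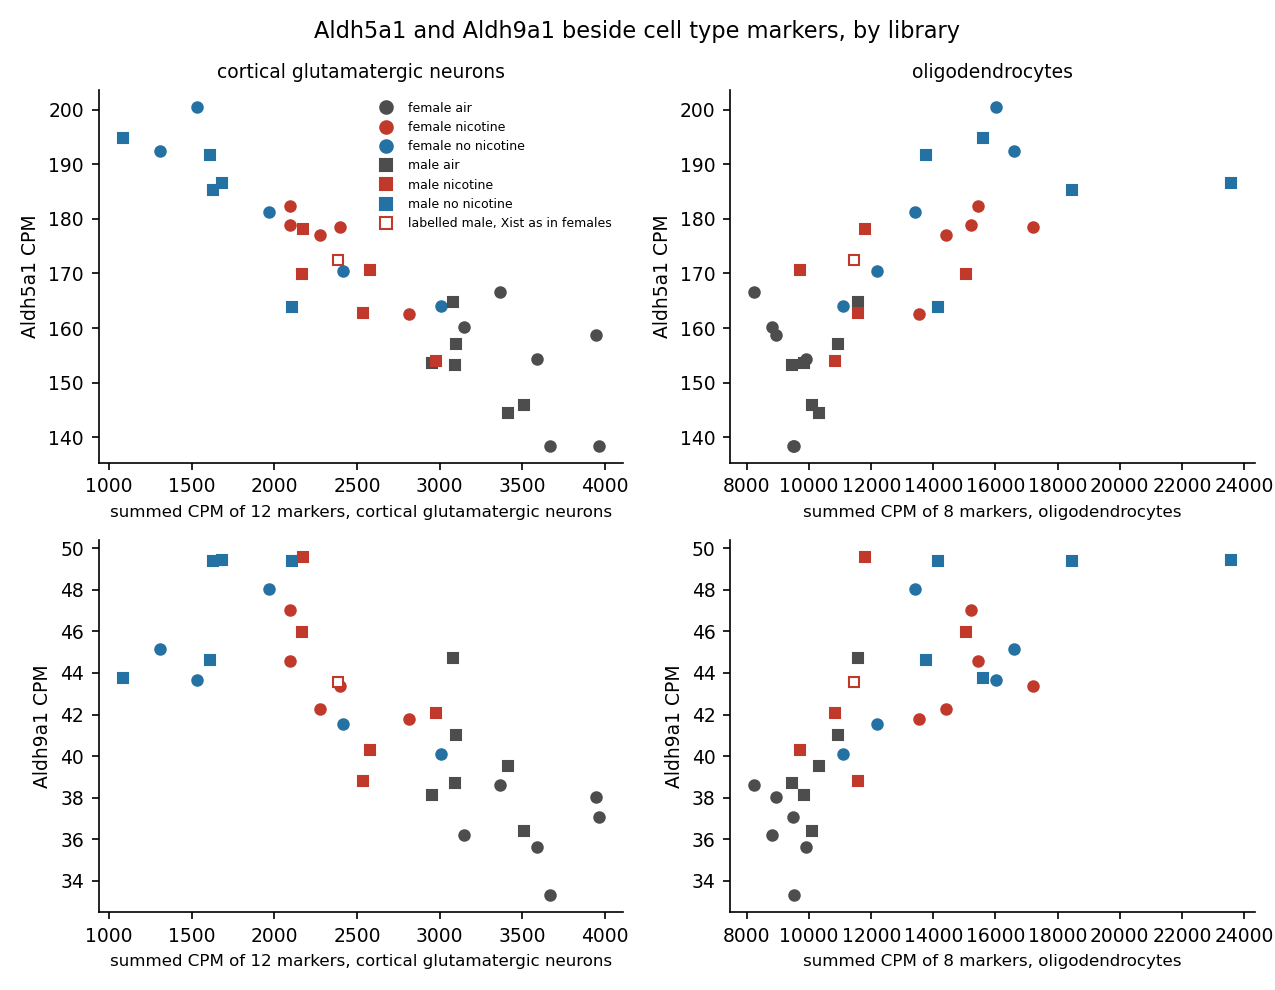
Aldh5a1 (top) and Aldh9a1 (bottom) CPM in each library (y axes, not from 0) against the summed CPM of 12 cortical glutamatergic markers (left) and 8 oligodendrocyte markers (right), circles female, squares male, coloured by exposure; the open square is the library labelled male nicotine replicate 21. Air libraries sit at the high end of the cortical sum (2952 CPM and above) and the low end of the oligodendrocyte sum (11563 CPM and below), and the lowest value of each enzyme is in an air library.

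The members did not vary as 1 block among animals of a group. Over 33 libraries, with each library taken as its log2 CPM minus its group mean, the 28 pairs of members had correlations from -0.38 (Aldh1a1 with Aldh9a1) to 0.62 (Aldh6a1 with Aldh7a1) with a median of 0.04, and Aldh5a1 with Aldh9a1 gave 0.42. These are descriptions over libraries that share their tissue mix and depth. By the same measure the nearest of 15105 genes to Aldh5a1 were Abat (0.91), which encodes GABA transaminase, and Pdxk (0.81), pyridoxal kinase. For Aldh9a1 they were Mir568 (0.69) and F8 (0.68), for Adh5 Phax (0.63) and Nubpl (0.63), and for Aldh2 Eef2 (0.80) and Sft2d2 (0.77). Aldh1a1 lay nearest to E030003E18Rik (0.94) and Abcd2 (0.82), Aldh6a1 to Chpt1 (0.79) and Cd164 (0.73), Aldh7a1 to S1pr1 (0.78) and Csf1r (0.76), and Aldh3a2 to 0610009B22Rik (0.61) and Ell3 (0.60).

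Because the sources used here do not state whether counting used strand, reads of transcripts on the opposite strand cannot be told from those of a member where exons overlap. That applied to 7.07 and 3.595% of the exon bases of Aldh5a1 (4932702P03Rik and 9330162012Rik), to 2.81% of Aldh6a1 (2900006K08Rik) and to 5.79% of Aldh7a1 (Phax). Aldh2, Aldh3a2, Aldh9a1 and Adh5 had no exon in common with another gene, and apart from Aldh1a1 at most 7.77% of a member's 50-base windows, Aldh5a1's, occurred in transcripts of another gene.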

How the data were processed

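RNA-Seq reads of mouse frontal cortex (single reads of 50 cycles) were, per the study's methods and processing notes, mapped to the mm9 transcriptome with Bowtie; SAMtools removed PCR duplicates and HTSeq counted reads over genes. The authors deposited raw counts for each sex in 1 table, and these were used; the same counts divided by size factors were not. Of the count columns 1 matched no labelled sample and was not used. Totals ran from 17845672 to 27513174 counts per library, and the fits' standard errors carry counting error and the spread between offspring.

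Genes with CPM summing to at least 5 in a sex were normalized by TMM and tested with edgeR 4.0.16 (quasi-likelihood, 3 groups of a sex in 1 fit, no covariates), adjusted over all genes by Benjamini-Hochberg, with a call at an adjusted p below 0.01. The change in males minus that in females came from a fit of both sexes. Scripts were tested on simulated data. Alternatives were DESeq2 1.42.0, limma 3.58.1 (voom), other scalings and filters, only the 2 groups compared, a replicate block, and leaving out each library (R 4.3.3, Python 3.11.15, pandas 2.3.3).

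All 8 members are named in every comparison, from other pathway lists the called genes (at most 5 by smallest p), and for each member the 2 genes with the highest correlation. Members and lists were chosen with earlier results of these data known. Replicates are separate offspring, 1 per litter by the study's methods. Positions are from the mm9 annotation (GENCODE M1) and promoters from RefSeq on GRCm38.p6.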

Additional observations from a re-analysis of the deposited data

Results flagged for a closer look

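Of 48 groups examined (8 members in 6 groups), 4 held 1 library far from the others by Dixon's criterion, which chance alone gives in about 1 in 20 groups. Aldh5a1 was lowest in female nicotine replicate 3 (163 CPM, the other 4 at 177 to 182 CPM), Aldh6a1 was lowest in female air replicate 5 (91.1 CPM), Aldh7a1 was highest in male nicotine replicate 15 (101 CPM) and Adh5 was highest in male nicotine replicate 16 (55.2 CPM). The causes were not tested.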

How the results depend on the processing

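The number of members called did not change with other scalings (DESeq2 size factors, upper quartile), without or with a stricter filter on low counts, with DESeq2's Wald test or with limma-voom. With only the 2 groups in the fit 1 member was called in female no nicotine offspring (Aldh5a1 at an adjusted p of 0.0139). The female groups share replicate numbers. Of 14 same-numbered pairs 4 correlated above 0.1 (median 0.01, from -0.27 to 0.27), and differently numbered pairs ran from -0.40 to 0.48. These values show no clear pairing by number but cannot exclude a shared block. With the replicate number as a block 0 members were called in female nicotine and 0 in female no nicotine offspring. Aldh9a1 was then at adjusted p of 0.0249 and 0.0113, and Aldh5a1 at 0.0235 without nicotine. Calls over all genes went from 651 to 136 and from 1829 to 736. Males share no numbers. With each library left out in turn, members called ranged from 0 to 1 (female nicotine), 1 to 2 (female no nicotine) and 1 to 2 (male no nicotine). DESeq2 called 1319 and limma-voom 1012 of all genes in female nicotine offspring, against 651, and DESeq2 456 and limma-voom 59 between male nicotine and no nicotine offspring, against 38.

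Changes of direction occurred only among values that were not called, all close to 0. They were Aldh1a1 in female nicotine offspring with upper quartile scaling (0.0019), Aldh2 (-0.00069) and Aldh1a1 (-0.0156) in female no nicotine offspring with limma-voom, Aldh9a1 between female nicotine and no nicotine offspring with the block (-0.0094) and the sex difference of Aldh7a1 for nicotine with upper quartile scaling (-0.00050). With each library left out, the log2 changes that crossed 0 in female nicotine offspring ran from -0.11 to 0.061 (Aldh1a1), -0.00028 to 0.045 (Aldh3a2) and -0.0097 to 0.043 (Aldh7a1), and in female no nicotine offspring from -0.026 to 0.033 (Aldh2) and -0.077 to 0.083 (Aldh1a1). Between the female exposed groups they ran from -0.12 to 0.059 (Aldh1a1), -0.034 to 0.0055 (Aldh6a1), -0.052 to 0.00014 (Aldh7a1) and -0.018 to 0.040 (Aldh9a1). In males they ran from -0.035 to 0.016 (Aldh2), -0.0062 to 0.015 (Aldh3a2) and -0.016 to 0.030 (Adh5) with nicotine, from -0.039 to 0.012 (Aldh3a2) without nicotine and from -0.0069 to 0.045 (Aldh3a2) between the exposed groups. Sex differences ran from -0.017 to 0.044 (Aldh7a1) for nicotine and from -0.019 to 0.054 (Aldh5a1), -0.041 to 0.025 (Aldh9a1) and -0.052 to 0.0026 (Adh5) for no nicotine. In all, 1284 of 1354 changes of single genes with a library left out and 461 of 470 under other settings kept their direction and their side of the threshold. The causes were not tested.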
